A study of Homo sapiens with 12 samples.

Results

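Genes of the ion channel families were examined in 2 human lung adenocarcinoma lines, CL1-5 and CL1-0, kept with or without a direct current electric field. The members were all genes whose only annotated symbol begins with KCN, CACN, SCN, CLCN, TRPA, TRPC, TRPM, TRPV, HCN, ASIC, P2RX, ANO or PIEZO, with a number after SCN, the TRP letters, HCN, ASIC and ANO. They numbered 192 of the 19775 genes with 1 symbol on the array, and each was described by the probe set of highest mean log2 signal over the 12 arrays. By symbol alone, 174 members were counted as channel subunits, with the CLC exchangers among them. The other 18 are antisense or other non-coding transcripts, or proteins that share the letters without being channels. The members were chosen by symbol and not by their values.

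CL1-5 is a subline of CL1-0 selected in culture for invasion through a membrane, so each line stands for 1 lineage from 1 tumour. The 4 groups were CL1-5 cells at 300 mV/mm, CL1-5 cells at 0 mV/mm, CL1-0 cells at 300 mV/mm and CL1-0 cells at 0 mV/mm. All 4 were grown in a microfluidic chip, held for 2 h in medium without serum and lifted with trypsin before RNA was taken. Each group had 3 arrays that the labels call biological replicates, and nothing further is said of how the cultures were kept apart, so p-values measure the spread between these samples.

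Ion channels are membrane proteins that open to let K+, Na+, Ca2+ or Cl- pass down a gradient. Voltage-gated families open with a change of membrane potential, Ca2+-activated K+ channels and several anoctamins with a rise of Ca2+ in the cell, TRP channels with chemical or thermal stimuli, and PIEZO channels with stretch of the membrane. In carcinoma cells channels are known for setting the membrane potential and cell volume, and in migrating cells for Ca2+ entry and for swelling and shrinking at the front and rear.

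The deposited values were linear signals from the MAS5 algorithm, examined here as log2 signal, on which a difference of 1 is a 2-fold change. All 12 arrays had the same mean with the highest and lowest 2% left out, and their medians lay between 5.92 and 6.18. Replicate 1 of every group stood apart: its signal for the poly-A spike-in control dap was 3.64 to 14.5, where the remaining arrays had 1253 to 1665, and its 18S control 49.7 to 134, where they had 5577 to 8406. Because every group holds 1 such array, the difference is spread evenly over the groups. The keratins KRT7, KRT8 and KRT18, which mark epithelial cells, were above the array median on all arrays of both lines. EPCAM and CDH1 were so on all arrays of CL1-0 only. KRT19, the last of the 6 epithelial genes, was not so on all arrays of either line. The epithelial list summed to 18730 to 32650 and 16370 to 25410 in CL1-5 with and without the field. In CL1-0 the sums were 4423 to 24680 and 3190 to 18670, so the lines overlapped. Of 5 fibroblast markers COL1A1 alone was above the median on all arrays of both lines. None of the 3 muscle markers measured was above it on all arrays of either line. Of 4 leukocyte markers measured, 3 were above the array median on no array. Of the neuronal list, SNAP25 and NEFL were above it on all arrays of both lines, with a summed signal of the list of 5989 to 8073 and 4427 to 10120 in CL1-5 with and without the field, and 8224 to 16430 and 6200 to 17500 in CL1-0. Of 4 endothelial markers PECAM1 was above the median on all arrays of both lines and 2 were above it on none, and the summed signal of the list was 331 to 1735 and 417 to 1202 in CL1-5 with and without the field, against 184 to 208 and 138 to 219 in CL1-0, with no overlap. Their part in the channel results was not tested.

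A gene entered the tests when its signal was above the median of the array on at least 3 of the 12 arrays, and 94 of the 192 members did so, 88 of them among the 174 channel subunits. Of all 19775 genes with 1 symbol 13838 did so, a larger share than that of the members. In all, 28 members were above the array median on every array, 69 were above it on none, and 29 on 1 or 2 arrays. The families differed in this count. All 3 HCN and both PIEZO genes passed, as did 8 of 10 anoctamins, 11 of 15 accessory subunits of voltage-gated Ca2+ channels and 4 of 6 CLC genes, but only 4 of 12 voltage-gated Na+ channel subunits, 3 of 14 two-pore-domain K+ channels and 1 of 4 ASIC genes. Of the Na+ channel subunits, 8 were above the array median on no array. Some members passed through 1 line alone: 4 through CL1-5 arrays (ANO1, PIEZO2, ASIC2-AS1 and TRPA1) and 12 through CL1-0 arrays, among them KCNJ2, KCNT2 and ANO5. Such genes enter the test because they are higher in one line, so the counts over the 94 describe those genes and are no evidence about the families.

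**Figure D1:**
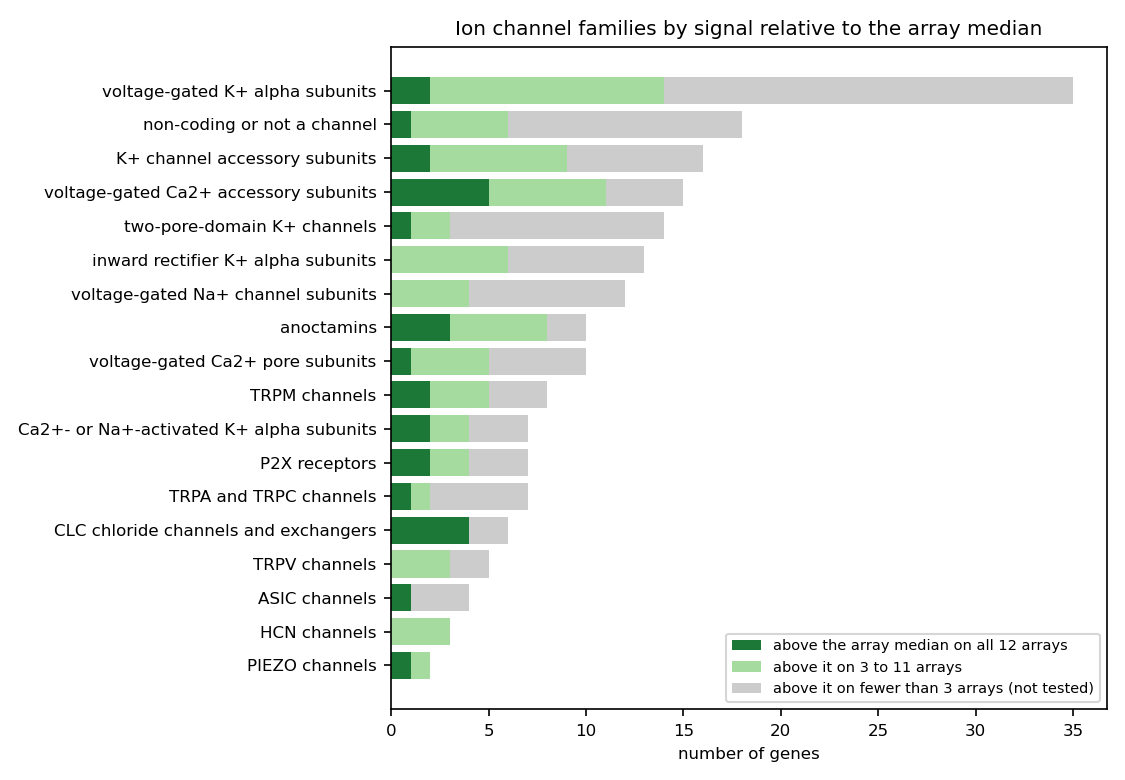
Number of genes in each ion channel group (horizontal axis) by how often the described probe set was above the median of its array. The bars of the CLC group are dark for 4 of 6 genes, those of the voltage-gated Na+ channels are grey for 8 of 12, and no Na+ channel subunit was above the median on all 12 arrays.

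Between the lines, 19 of the 94 tested members differed under the field, 8 higher and 11 lower in CL1-5, at an adjusted p under 0.05. This is 20.2% of the members, against 19.4% of all 13838 genes tested (9.83% higher, 9.62% lower). Without the field 15 members differed, 9 higher and 6 lower in CL1-5, which is 16.0% against 18.0% of all genes (9.04% higher, 8.93% lower). With each array centred on its median the split without the field was 6 higher and 7 lower. Without a block, both shares lie near those of all genes. With the replicate number as a block, 38.1% of all genes passed under the field and 35.6% without it. Of the 94 members 28 and 19 did, which are smaller shares than those of all genes. The median difference of the members was -0.35 under the field and -0.18 without it, against -0.08 and -0.03 for all genes, and the median size without sign was 0.73 and 0.53, against 0.51 and 0.47. All 19 and 15 members had line groups that did not overlap, and 32 and 29 members in all had such groups, 34.0% and 30.9%, against 35.8% and 34.0% of all genes. In RNA of whole cultures, fewer cells with a transcript and less of it per cell cannot be told apart.

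The 2 line comparisons shared 12 members, and all of them differed in the same direction in both. Higher in CL1-5 were KCNMA1, KCNN4, CACNA2D4, TRPA1, ANO10 and ANO4, and lower were KCNH2, KCNJ2, KCNT2, ANO5, TRPM2 and KCNG3. Among them TRPA1 had entered the tests through CL1-5 arrays alone, and KCNJ2, KCNT2 and ANO5 through CL1-0 arrays alone. The p-values of those genes describe their values and are no separate support for a line difference. A further 7 members passed under the field (ANO7, KCNMB4, P2RX5, ANO8, CACNG6, CACNA2D2 and CACNA1B) and 3 without it (KCNQ5, KCNC4 and KCNG1). The test of whether the line difference itself changed with the field called none of these genes, with an adjusted p of 0.9999 for each.

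**Figure D2:**
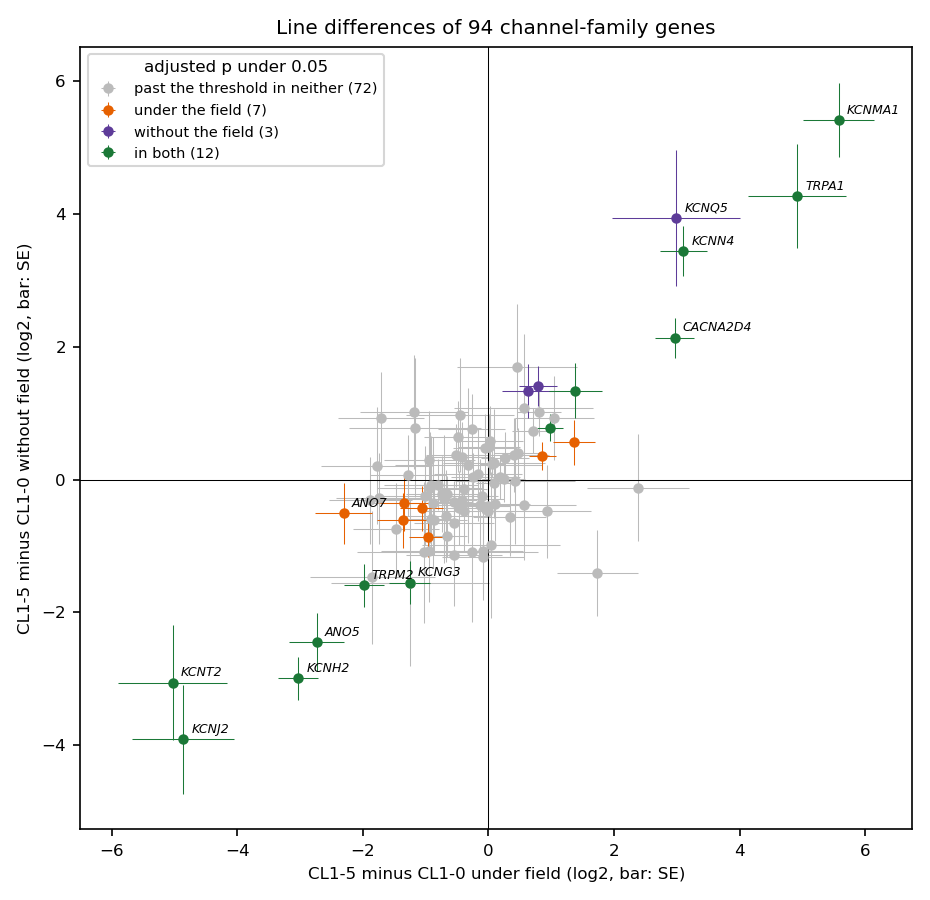
Log2 difference of CL1-5 minus CL1-0 under the field (horizontal axis) and without it (vertical axis) for the 94 tested members, each with its SE from the fit. The 12 members called in both comparisons run from KCNJ2 and KCNT2 at the lower left to KCNMA1 at the upper right. Of the 72 members called in neither, some lie well away from 0, among them ANO1 at 2.39 under the field and KCNAB1 at 1.70 without it.

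KCNMA1, which encodes the pore of the large-conductance BK channel opened by Ca2+ and depolarisation together, had log2 signals of 10.14, 10.58 and 10.97 in CL1-5 under the field and 11.33, 10.46 and 10.88 in CL1-5 without it, against 4.15, 4.15 and 6.64 in CL1-0 under the field and 5.62, 5.27 and 5.51 in CL1-0 without it. Every CL1-5 array stood far above every CL1-0 array, and only 1 CL1-0 array was above its own median. The difference was 5.58 ± 0.56 under the field (SE; adjusted p = 3.45e-05) and 5.42 ± 0.56 without it (adjusted p = 4.08e-05). With signals under the array median raised to that median, CL1-5 was still at least 20.3-fold and 30.0-fold higher. Of 4 probe sets for KCNMA1, the 3 that passed the filter were each higher in CL1-5, the other 2 by at least 5.35-fold under the field and at least 5.2-fold without it.

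KCNN4 encodes the intermediate-conductance channel KCa3.1, which Ca2+ opens through calmodulin. Its log2 signals were 10.65, 9.88 and 10.23 in CL1-5 under the field and 11.12, 9.64 and 9.98 in CL1-5 without it, against 6.91, 7.59 and 6.95 in CL1-0 under the field and 6.67, 6.64 and 7.08 in CL1-0 without it. The lines did not overlap, and all 12 arrays were above their median, so both levels were measured. CL1-5 was 8.60-fold higher under the field (log2 difference 3.10 ± 0.38, adjusted p = 0.000137) and 10.9-fold higher without it (3.44 ± 0.38, adjusted p = 5.8e-05).

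KCNT2, a K+ channel opened by Na+ in the cell, ran the other way. It had 2.78, 3.78 and 0.50 in CL1-5 under the field and 4.46, 3.40 and 4.37 in CL1-5 without it, against 6.66, 7.92 and 7.57 in CL1-0 under the field and 6.37, 6.61 and 8.43 in CL1-0 without it. All CL1-5 arrays were below the array median and all CL1-0 arrays above it, so the fitted differences of -5.03 ± 0.86 under the field (adjusted p = 0.00165) and -3.06 ± 0.86 without it (adjusted p = 0.0286) rest on low signals. With signals under the median raised to it the call ended in both settings (adjusted p = 0.0629 and 0.144), and without the field it also ended without CL1-5 replicate 2 or 3 or CL1-0 replicate 2 or 3 (adjusted p = 0.0537 to 0.133). KCNN1, a small-conductance channel opened by Ca2+, averaged 7.66 and 7.88 in CL1-5 with and without the field and 7.91 and 7.84 in CL1-0, and did not pass (adjusted p = 0.698 and 0.961).

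The BK accessory subunit gene KCNMB4, which in other cells slows the gating of the pore, was higher in CL1-5 under the field. Its signals there were 8.78, 8.09 and 8.54 in CL1-5, against 7.52, 6.68 and 7.13 in CL1-0, with no overlap (1.36 ± 0.33, adjusted p = 0.0133). The call ended without CL1-0 replicate 2 of the field group (adjusted p = 0.0603). Without the field the values were 8.70, 8.06 and 7.63 in CL1-5, against 7.68, 7.60 and 7.43 in CL1-0. There the groups overlapped, and the difference of 0.56 ± 0.33 did not pass (adjusted p = 0.305). Another of its 3 probe sets, above the median on all 12 arrays, gave 0.54 under the field and 0.56 without it. By that probe set the line difference was no larger under the field. The remaining probe set, above the median on 2 arrays, gave 2.61 under the field and 1.14 without it. Of the 9 K+ channel accessory subunits tested, KCNMB4 was the only one past the threshold, where 19.4% of all genes passed under the field and 18.0% without it.

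To show the sequence context of the K+ channel genes that separate the lines in either direction, the 250 bases before annotated starts are given for KCNMA1, KCNN4, KCNH2 and KCNJ2 from RefSeq on GRCh38.p14, each written 5′ to 3′ on the strand of the gene. These 4 genes were chosen after their values were seen. Capitals mark the words GGGCGG (the GC box bound by SP factors), CAGGTG (an E-box) and TGANTCA (the AP-1 word) on either strand, and a word on the other strand is written as its complement. TATAAA was searched too and is in none of the 5 windows. Of 35116 windows of this length in the same table, 42.6% hold GGGCGG, 17.5% CAGGTG, 6.57% TGANTCA and 10.7% TATAAA. The windows lie at chr10:77637809-77638058 (minus strand) and chr10:77350762-77351011 (minus strand, a second annotated start) for KCNMA1, chr19:43780974-43781223 (minus strand) for KCNN4, chr7:150978322-150978571 (minus strand) for KCNH2 and chr17:70169282-70169531 (plus strand) for KCNJ2.
KCNMA1, most upstream start: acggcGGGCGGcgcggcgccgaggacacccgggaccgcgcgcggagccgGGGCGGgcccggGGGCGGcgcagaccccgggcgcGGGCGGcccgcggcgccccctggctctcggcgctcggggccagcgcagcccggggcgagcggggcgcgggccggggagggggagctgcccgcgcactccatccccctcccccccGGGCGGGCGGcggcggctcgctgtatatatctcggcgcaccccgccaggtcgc
KCNMA1, second start: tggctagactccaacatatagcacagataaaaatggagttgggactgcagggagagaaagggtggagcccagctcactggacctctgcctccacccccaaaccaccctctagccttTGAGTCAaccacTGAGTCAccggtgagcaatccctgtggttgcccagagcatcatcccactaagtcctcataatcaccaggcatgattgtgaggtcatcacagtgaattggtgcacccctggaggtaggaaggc
KCNN4: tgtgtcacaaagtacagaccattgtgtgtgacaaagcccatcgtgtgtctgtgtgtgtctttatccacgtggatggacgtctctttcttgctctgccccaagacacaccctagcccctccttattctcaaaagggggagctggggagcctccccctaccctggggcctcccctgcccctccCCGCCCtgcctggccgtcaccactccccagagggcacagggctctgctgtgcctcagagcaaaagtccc
KCNH2: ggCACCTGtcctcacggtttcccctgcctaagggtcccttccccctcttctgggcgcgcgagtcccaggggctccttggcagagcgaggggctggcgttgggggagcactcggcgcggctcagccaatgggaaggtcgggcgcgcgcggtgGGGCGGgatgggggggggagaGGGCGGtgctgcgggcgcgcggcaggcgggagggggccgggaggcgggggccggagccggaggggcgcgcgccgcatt
KCNJ2: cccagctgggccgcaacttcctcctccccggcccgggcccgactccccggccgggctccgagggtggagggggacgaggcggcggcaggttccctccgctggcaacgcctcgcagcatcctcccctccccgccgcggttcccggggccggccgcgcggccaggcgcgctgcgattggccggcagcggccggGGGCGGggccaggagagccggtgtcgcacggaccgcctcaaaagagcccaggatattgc
The first KCNMA1 window holds 6 GC boxes and is 85.6% G and C, and the second holds 2 AP-1 words, 134 and 122 bases before the start, and no GC box. A second start was searched for KCNMA1 alone, so these AP-1 words make no contrast with the other genes. KCNN4 and KCNJ2 have 1 GC box each, 69 and 59 bases before the start, and KCNH2 has 2, at 99 and 78 bases, with an E-box at 248. Genes higher in CL1-5 and genes lower in it both carry the GC box, and a match says only that these letters are present.

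Among the voltage-gated K+ channel alpha subunits, 35 genes of which 14 were tested, 2 were lower in CL1-5 under the field, and 3 were higher and 2 lower without it. Of all genes, 19.4% passed under the field and 18.0% without it. With the replicate block KCNQ1 also passed under the field, higher in CL1-5 (1.73, adjusted p = 0.0266). KCNH2 encodes the hERG channel, known for repolarising the heart and also found in tumour cells. Its log2 signals were 6.68, 5.86 and 5.51 in CL1-5 under the field and 6.22, 5.80 and 5.97 in CL1-5 without it, against 8.91, 8.95 and 9.28 in CL1-0 under the field and 8.88, 8.92 and 9.19 in CL1-0 without it. The CL1-5 values lie around the array median and all CL1-0 values well above it. The difference was -3.03 ± 0.32 under the field (adjusted p = 4.72e-05) and -3.0 ± 0.32 without it (adjusted p = 4.85e-05). With low signals raised to the median, CL1-5 was at least 7.14-fold and 7.47-fold lower, and by a second probe set at least 1.85-fold and 1.48-fold lower.

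KCNG3, a silent subunit that acts only in mixed channels with KCNB proteins, had 6.78, 6.29 and 6.54 in CL1-5 under the field and 5.87, 6.43 and 6.79 in CL1-5 without it, against 7.78, 7.77 and 7.82 in CL1-0 under the field and 8.34, 7.65 and 7.76 in CL1-0 without it. All CL1-5 arrays were below all CL1-0 arrays (difference -1.25 ± 0.32 under the field, adjusted p = 0.017, and -1.55 ± 0.32 without it, adjusted p = 0.0054). The call under the field ended without CL1-5 replicate 2 or CL1-0 replicate 2 or 3 of the field groups (adjusted p = 0.0507 to 0.0589).

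KCNQ5, a subunit of the slow M-type current of neurons, had 7.02, 7.90 and 7.82 in CL1-5 under the field against 1.51, 6.59 and 5.68 in CL1-0, and the difference of 2.99 ± 1.02 did not pass (adjusted p = 0.0611; 0.0144 with the replicate block). Without the field it was higher in CL1-5, at 7.67, 8.57 and 7.69 against 3.78, 3.54 and 4.80 in CL1-0 (3.94 ± 1.02, adjusted p = 0.0191). The groups overlapped in neither setting, and the CL1-0 arrays under the field spread widely. The call without the field ended without CL1-5 replicate 2 or CL1-0 replicate 1 or 2 of those groups (adjusted p = 0.0513 to 0.0692). KCNC4, a fast-activating channel of the Shaw type, had 9.32, 9.15 and 9.74 in CL1-5 under the field against 8.30, 8.90 and 8.66 in CL1-0 (0.78 ± 0.30, adjusted p = 0.0947; 0.0412 with the replicate block). Without the field it had 9.92, 9.50 and 9.28 in CL1-5 against 8.67, 7.68 and 8.11 in CL1-0 (1.41 ± 0.30, adjusted p = 0.00658). Its 3 probe sets disagreed without the field, from -0.20 to 1.41, and the mean over them did not pass (0.65, adjusted p = 0.374).

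The inward rectifiers hold the resting potential near that of K+. In each setting 1 of 6 tested members passed, where 19.4% of all genes did under the field and 18.0% without it. With the replicate block KCNJ5 passed as well under the field (-1.71, adjusted p = 0.0312). KCNJ2, which encodes Kir2.1, had 2.44, 2.39 and 1.94 in CL1-5 under the field and 3.96, 3.59 and 1.36 in CL1-5 without it, against 6.62, 6.81 and 7.94 in CL1-0 under the field and 5.96, 6.83 and 7.86 in CL1-0 without it. All CL1-5 arrays were far under the array median, and the CL1-0 arrays were around or above it. The fitted differences were -4.86 ± 0.82 under the field (adjusted p = 0.00143) and -3.91 ± 0.82 without it (adjusted p = 0.00576). With low signals raised to the median they were -1.08 and -0.84 and did not pass (adjusted p = 0.0975 and 0.208). None of the 3 tested two-pore-domain channels, which carry background K+ current, passed without the block. KCNK5 had the highest mean of these and passed under the field with the replicate block (-0.66, adjusted p = 0.0325), with 7.51 and 8.19 in CL1-5 with and without the field, against 8.17 and 8.42 in CL1-0.

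**Figure D3:**
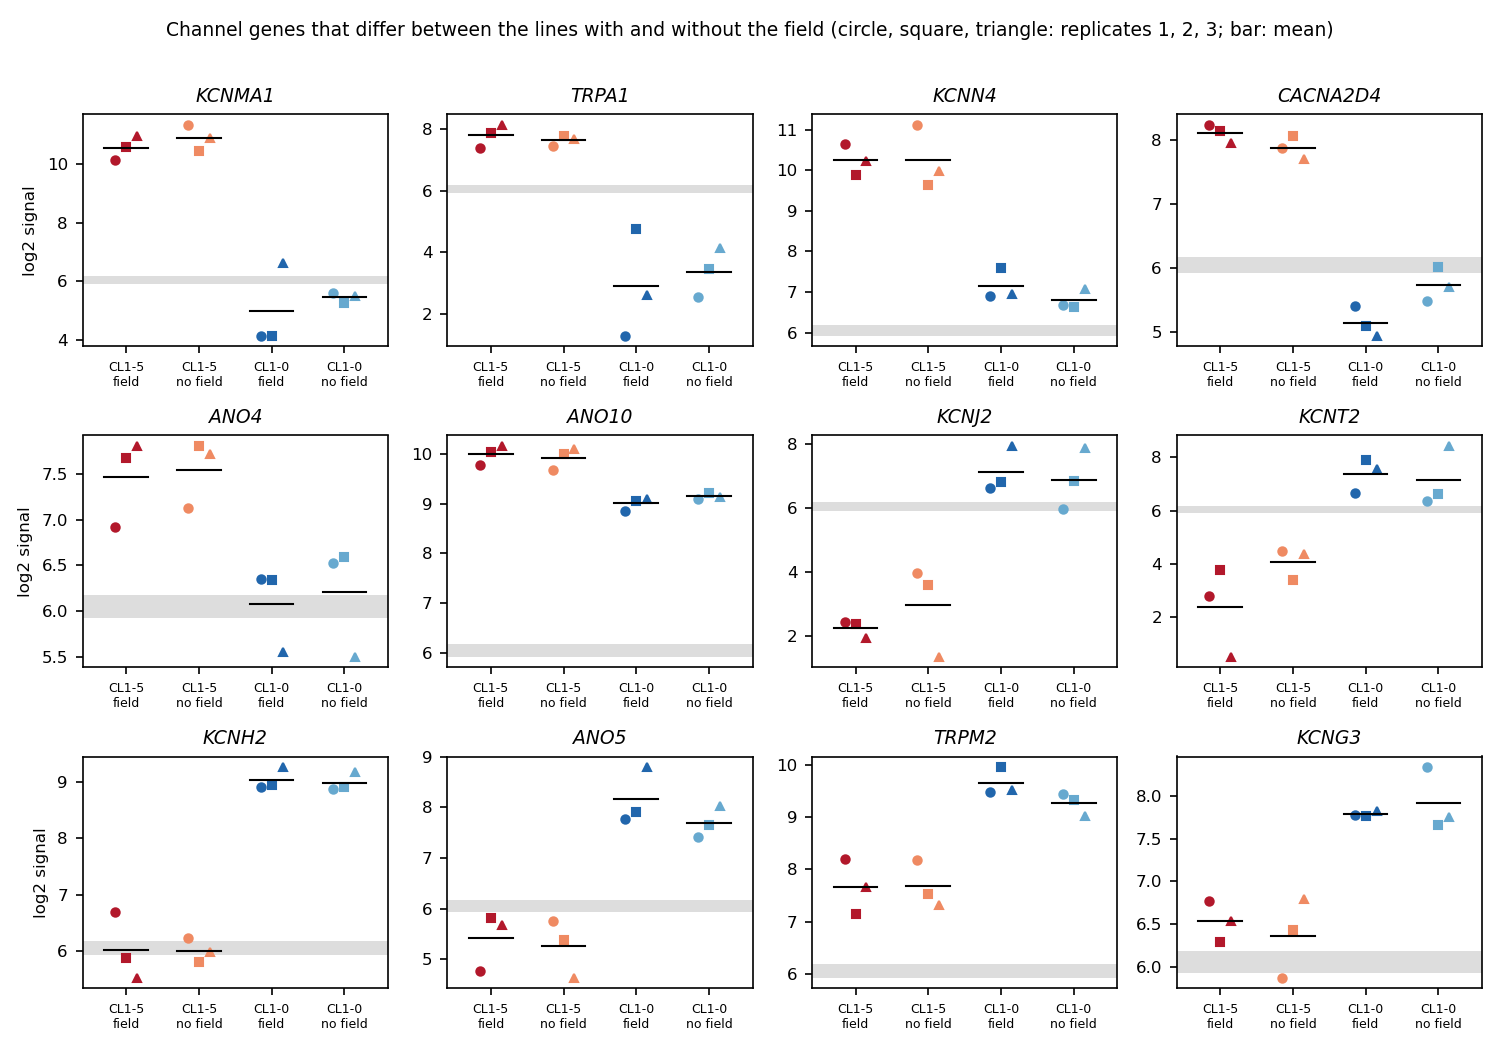
Log2 signal on each array of the 12 members called in both line comparisons, for CL1-5 and CL1-0 under and without the field. Symbols mark replicates 1, 2 and 3, the short bar is the mean of 3 arrays and the grey band is the range of the array medians, 5.92 to 6.18. In every panel the 6 CL1-5 points lie all above or all below the 6 CL1-0 points.

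Of the voltage-gated Ca2+ channel genes tested, 1 of 11 accessory subunits was higher and 2 were lower in CL1-5 under the field, 1 was higher without it, and 1 of 5 pore subunits was lower under the field. These counts stand against 19.4% of all genes under the field and 18.0% without it. CACNA2D4, an alpha2delta subunit that carries pore subunits to the membrane and is known from the retina, had 8.23, 8.15 and 7.95 in CL1-5 under the field and 7.87, 8.06 and 7.70 in CL1-5 without it, against 5.40, 5.10 and 4.94 in CL1-0 under the field and 5.49, 6.01 and 5.71 in CL1-0 without it. The replicates within each group lay close together and the lines did not overlap. The difference was 2.96 ± 0.30 under the field (adjusted p = 3.85e-05) and 2.14 ± 0.30 without it (adjusted p = 0.000423), at least 4.19-fold and 3.64-fold with low signals raised to the median. A second probe set of the gene, above the median on 6 arrays, was at least 17.0-fold and 14.1-fold higher on the same footing.

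Other alpha2delta and gamma subunits gave smaller differences. CACNA2D2 had 6.67, 6.34 and 7.02 in CL1-5 under the field against 7.75, 7.37 and 7.81 in CL1-0 (-0.97 ± 0.31, adjusted p = 0.0458), and -0.86 ± 0.31 without the field (adjusted p = 0.0743; 0.0409 with the replicate block). CACNG6 had 7.07, 7.62 and 5.99 in CL1-5 under the field against 8.54, 8.39 and 7.77 in CL1-0 (-1.34 ± 0.41, adjusted p = 0.0405), while its second probe set gave 0.17. Neither gene's groups overlapped under the field. CACNA1B, the pore of the N-type channel of nerve terminals, had 6.72, 6.24 and 7.18 in CL1-5 under the field against 7.52, 7.47 and 8.33 in CL1-0 (-1.06 ± 0.34, adjusted p = 0.0476). Its second probe set, above the median on 1 array, gave 1.03, and with both averaged the difference was -0.014 (adjusted p = 0.994). The 3 calls are close to the threshold. That of CACNA2D2 ended without any one of 9 arrays, all but CL1-5 replicate 3 under the field and replicate 1 of both lines without it (adjusted p = 0.0501 to 0.143). That of CACNG6 ended without any one of 6, CL1-5 replicates 1 and 3 and CL1-0 replicates 1 and 2 under the field and replicate 3 of both lines without it (adjusted p = 0.0549 to 0.143). That of CACNA1B ended without any one of 11, all but CL1-5 replicate 3 under the field (adjusted p = 0.0532 to 0.193). CACNG4, with the highest mean of the accessory group, averaged 8.73 and 9.05 in CL1-5 with and without the field, against 9.54 and 9.13 in CL1-0, and did not pass (adjusted p = 0.177 and 0.932). That level rests on 1 probe set. The other probe sets of CACNG4, with means of 3.83 and 3.38, were above the array median on no array. CACNG8 was higher in CL1-5 with the replicate block alone (0.80 under the field, adjusted p = 0.0251, and 1.01 without it, adjusted p = 0.00825).

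TRP channels are cation channels, many of which admit Ca2+. TRPA1, which opens with electrophilic irritants and oxidants, had 7.40, 7.88 and 8.13 in CL1-5 under the field and 7.46, 7.78 and 7.68 in CL1-5 without it, against 1.28, 4.76 and 2.62 in CL1-0 under the field and 2.54, 3.44 and 4.12 in CL1-0 without it. It was above the array median on all 6 CL1-5 arrays and on no CL1-0 array. The difference was 4.91 ± 0.78 under the field (adjusted p = 0.000962) and 4.27 ± 0.78 without it (adjusted p = 0.00247). With low signals raised to the median CL1-5 was at least 3.39-fold and 3.15-fold higher, and the mean of both its probe sets did not pass under the field (1.66, adjusted p = 0.18).

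TRPM2, a Ca2+-permeable channel opened by ADP-ribose after oxidative stress, had 8.19, 7.15 and 7.67 in CL1-5 under the field and 8.18, 7.52 and 7.32 in CL1-5 without it, against 9.48, 9.96 and 9.53 in CL1-0 under the field and 9.44, 9.33 and 9.03 in CL1-0 without it. All 12 arrays were above their medians and the lines did not overlap, with CL1-5 lower by 3.96-fold under the field (-1.99 ± 0.32, adjusted p = 0.00101) and 3.02-fold without it (-1.60 ± 0.32, adjusted p = 0.00424). TRPC1, a subunit of receptor- and store-linked Ca2+ entry, averaged 10.75 and 10.37 in CL1-5 with and without the field, against 10.04 and 9.63 in CL1-0, and did not pass (adjusted p = 0.176 and 0.166; 0.0517 and 0.0456 with the replicate block). TRPM7, a channel joined to a kinase, averaged 8.64 and 8.85 in CL1-5 and 9.07 and 9.16 in CL1-0 with and without the field (adjusted p = 0.252 and 0.453). None of the 3 tested TRPV members, of which TRPV2 had the highest mean, passed without the block, and TRPV3 passed under the field with it (-1.88, adjusted p = 0.0243).

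The anoctamins, Ca2+-activated Cl- channels or lipid scramblases, had 5 of 8 tested members past the threshold under the field and 3 without it, where 19.4% and 18.0% of all genes passed. These are counts of a few genes, and nothing particular to the family was tested. With the replicate block ANO1 passed under the field too (2.39, adjusted p = 0.0184). ANO6, a scramblase that also passes ions, had the highest mean of the group, with 12.05, 11.74 and 12.21 in CL1-5 under the field against 11.77, 11.99 and 12.07 in CL1-0, and it did not pass in either setting (adjusted p = 0.878 under the field and 0.505 without it). ANO5, a member known from muscle, had 4.78, 5.82 and 5.68 in CL1-5 under the field and 5.76, 5.37 and 4.63 in CL1-5 without it, against 7.77, 7.91 and 8.80 in CL1-0 under the field and 7.42, 7.65 and 8.02 in CL1-0 without it. It was above the array median on the 6 CL1-0 arrays alone, and the difference was -2.74 ± 0.44 under the field (adjusted p = 0.00105) and -2.44 ± 0.44 without it (adjusted p = 0.00224). With low signals raised to the median CL1-5 was at least 4.35-fold and 3.11-fold lower.

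ANO10, a member linked to inherited ataxia, was higher in CL1-5 by less than 2-fold, with a small spread between arrays. It had 9.77, 10.03 and 10.16 in CL1-5 under the field and 9.68, 9.99 and 10.10 in CL1-5 without it, against 8.86, 9.06 and 9.10 in CL1-0 under the field and 9.09, 9.22 and 9.13 in CL1-0 without it (0.98 ± 0.20, adjusted p = 0.00483 under the field, and 0.78 ± 0.20, adjusted p = 0.0183 without it). The call without the field ended without CL1-5 replicate 2 or 3 or CL1-0 replicate 1 or 3 of those groups (adjusted p = 0.0501 to 0.0763). ANO4 averaged 7.47 ± 0.48 and 7.55 ± 0.37 in CL1-5 with and without the field, against 6.08 ± 0.46 and 6.21 ± 0.61 in CL1-0 (SD, n = 3 each; adjusted p = 0.0366 and 0.0448). The call under the field ended without any one of 6 arrays, CL1-5 replicates 2 and 3 and all CL1-0 replicates under the field and CL1-5 replicate 3 without it (adjusted p = 0.0528 to 0.137). The call without the field ended without any one of 9, all but CL1-5 replicate 1 of both settings and CL1-0 replicate 3 under the field (adjusted p = 0.0513 to 0.166).

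ANO7, known from the prostate, and ANO8 were lower in CL1-5 under the field. ANO7 had 6.31, 6.22 and 5.23 in CL1-5 under the field and 8.41, 7.46 and 7.03 in CL1-5 without it, against 8.42, 7.92 and 8.34 in CL1-0 under the field and 8.94, 7.79 and 7.70 in CL1-0 without it. The CL1-5 field arrays lie below all 9 others. The line difference was -2.30 ± 0.46 under the field (adjusted p = 0.00396) and -0.51 ± 0.46 without it (adjusted p = 0.529). ANO8 averaged 6.65 ± 0.49 in CL1-5 and 8.0 ± 0.35 in CL1-0 under the field (SD, n = 3 each; adjusted p = 0.0385), a call that ended without any one of 8 arrays, all but CL1-5 replicate 3 under the field and CL1-5 replicates 1 and 3 and CL1-0 replicate 1 without it (adjusted p = 0.0525 to 0.128).

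Of the other families, P2RX5, a cation channel opened by extracellular ATP, was higher in CL1-5 under the field, with 9.54, 9.43 and 9.35 in CL1-5 against 8.80, 8.66 and 8.28 in CL1-0 (0.86 ± 0.21, adjusted p = 0.0141). The call ended without CL1-0 replicate 3 of the field group (adjusted p = 0.0669). P2RX4, of the same family, averaged 9.44 and 9.23 in CL1-5 with and without the field and 9.20 and 9.22 in CL1-0 (adjusted p = 0.685 and 0.989). CLCN3, an endosomal Cl-/H+ exchanger, averaged 10.47 and 10.42 in CL1-5, against 10.58 and 10.67 in CL1-0, and none of the 4 tested CLC genes passed. With the replicate block CLCN5 passed without the field (-0.85, adjusted p = 0.0209), while another of its probe sets, above the median on all 12 arrays, gave 0.22. CLCN4, named after its values were seen, was untested through its probe set of highest mean, while another of its 5 was above the array median on 4 arrays and gave -3.94 under the field and -5.14 without it. With low signals raised to the median that probe set's lines differed by 1.12-fold and 1.14-fold. The proton-gated channel gene ASIC1 averaged 7.86 and 8.05 in CL1-5 and 8.40 and 8.39 in CL1-0 (adjusted p = 0.237 and 0.517), and no HCN or voltage-gated Na+ channel gene passed. With the replicate block SCN3B did so under the field (-1.74, adjusted p = 0.0421). KCNG1, a silent K+ channel subunit, averaged 9.34 ± 0.26 in CL1-5 and 8.0 ± 0.60 in CL1-0 without the field (SD, n = 3 each; adjusted p = 0.041), a call that ended without any one of 7 arrays, CL1-0 replicates 2 and 3 under the field and all CL1-5 replicates and CL1-0 replicates 1 and 3 without it (adjusted p = 0.0522 to 0.154).

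PIEZO1, the stretch-activated cation channel, differed between replicate 1 and the others in every group. It had 10.97, 9.31 and 9.50 in CL1-5 under the field and 10.74, 9.15 and 9.52 in CL1-5 without it, against 10.38, 9.17 and 9.0 in CL1-0 under the field and 10.11, 8.76 and 9.44 in CL1-0 without it. Replicate 1, the array without spike-in signal, was the highest in every group. The line difference was 0.41 ± 0.56 under the field (adjusted p = 0.67; 0.102 with the replicate block) and 0.37 ± 0.56 without it (adjusted p = 0.743; 0.151 with the block). CLCN7, TRPM4 and TRPC4AP were likewise highest on the 4 replicate 1 arrays, and CACNA1S, CACNA2D1 and KCNRG lowest on them. These 4 and 3 of 94 members stand against 8.93% and 9.39% of all genes.

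**Figure D4:**
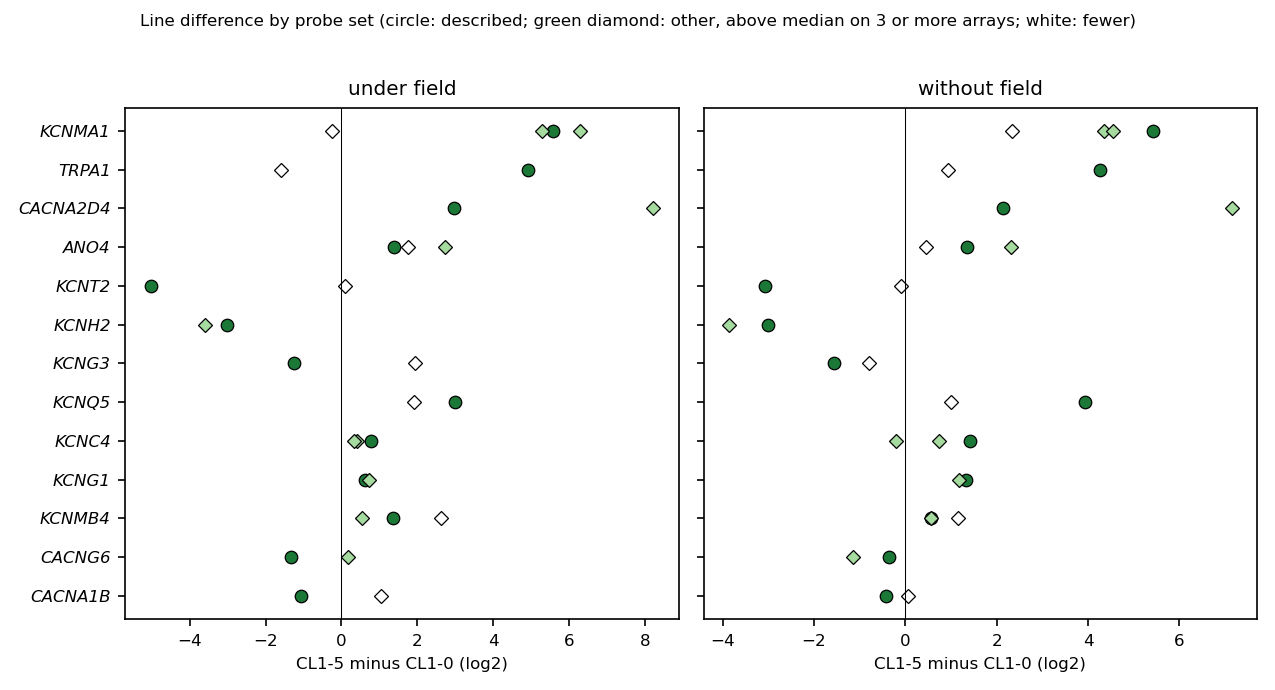
Log2 difference of CL1-5 minus CL1-0 by probe set, for called genes with more than 1 probe set, under (left) and without (right) the field. Filled circles are the probe sets described, green diamonds other probe sets above the array median on 3 or more arrays, and white diamonds those above it on fewer. The probe sets that passed the filter lie on one side of 0 for KCNMA1, CACNA2D4, KCNH2 and ANO4, whereas those of CACNG6 straddle 0 under the field and those of KCNC4 without it.

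The field itself, compared within each line, moved no channel member past the threshold. In CL1-5 none of 94 members and none of all genes passed (0.00%), and in CL1-0 likewise none passed (0.00%). At an unadjusted p under 0.05 there were 6 members in CL1-5, 6.38% against 1.83% of all genes, and 1 in CL1-0, 1.06% against 0.961%. With the replicate block, 7 and 3 of the 94 members had an unadjusted p under 0.05, where 10.7% and 3.36% of all genes did. The share of members was then below that of all genes in CL1-5 and near it in CL1-0. Again none passed after adjustment. The median difference of the members was -0.15 in CL1-5 and 0.05 in CL1-0, against -0.01 and 0.01 for all genes. In CL1-5 the groups did not overlap for 10 members, all lower under the field, 10.6% against 5.68% of all genes (2.57% lower, 3.11% higher). In CL1-0 this held for 6 members, 2 higher and 4 lower, 6.38% against 3.46% of all genes (1.89% higher, 1.57% lower).

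In CL1-5 the smallest p was that of ANO7, whose 3 field arrays lay below the 3 without it (values above; -1.71 ± 0.46, unadjusted p = 0.00279, adjusted p = 0.9996, and 0.299 with the replicate block). By replicate number its field arrays differed from those without it by -2.10, -1.24 and -1.80. KCNJ5, an inward rectifier subunit opened by G proteins, had 3.34, 6.15 and 6.09 under the field and 6.56, 7.68 and 7.47 without it in CL1-5 (-2.04 ± 0.68, unadjusted p = 0.0112), and 6.84, 6.47 and 7.40 against 6.24, 5.90 and 6.77 in CL1-0. Its field arrays were the lower ones in CL1-5, while the groups overlapped in CL1-0. By replicate number the field arrays differed by -3.22, -1.53 and -1.38 in CL1-5 and by 0.61, 0.56 and 0.63 in CL1-0. The probe sets of KCNJ5 disagreed: another that met the filter, above the median on 4 arrays, gave 1.16 in CL1-5 and -0.87 in CL1-0.

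TRPV3, a warmth-sensitive channel of keratinocytes, had 2.52, 5.04 and 4.74 in CL1-5 under the field and 5.47, 6.52 and 5.55 without it (-1.75 ± 0.66, unadjusted p = 0.0216), and with low signals raised to the median the difference was -0.17. KCNK5 had 7.47, 7.61 and 7.44 under the field and 8.70, 8.14 and 7.75 without it (-0.69 ± 0.27, unadjusted p = 0.0273), with all arrays above their medians and no overlap. CACNG6 was -0.97 ± 0.41 (unadjusted p = 0.0367), and its sign turned with the mean of its probe sets (0.29). The adjusted p of all 3 was 0.9996.

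In CL1-0 the smallest p was that of KCNQ1, the pore of a slow repolarising K+ current of the heart that also serves epithelia. It had 5.35, 4.57 and 5.11 under the field and 6.95, 6.85 and 6.39 without it in CL1-0, with no overlap (-1.72 ± 0.65, unadjusted p = 0.0213, adjusted p = 0.9999). In CL1-5 it had 7.15, 6.99 and 6.08 under the field and 6.39, 5.89 and 3.67 without it, where the groups overlapped (1.42 ± 0.65, unadjusted p = 0.0486, adjusted p = 0.9996). The field response in CL1-5 minus that in CL1-0 was 3.14 ± 0.92, the smallest p of any member in that comparison (unadjusted p = 0.00508, adjusted p = 0.9999, and 0.678 with the replicate block). By replicate number the field arrays differed by 0.77, 1.09 and 2.41 in CL1-5 and by -1.60, -2.28 and -1.28 in CL1-0. Its CL1-0 values under the field lie below the array median, and with low signals raised to the median the responses were 0.59 in CL1-5 and -0.68 in CL1-0. The next in CL1-0 were ANO1, CACNA2D4, KCNIP2 and P2RX5, with differences of -1.64, -0.59, -0.71 and -0.38, of which those of ANO1 and CACNA2D4 turned sign with low signals raised to the median (0.06 and 0.03).

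**Figure D5:**
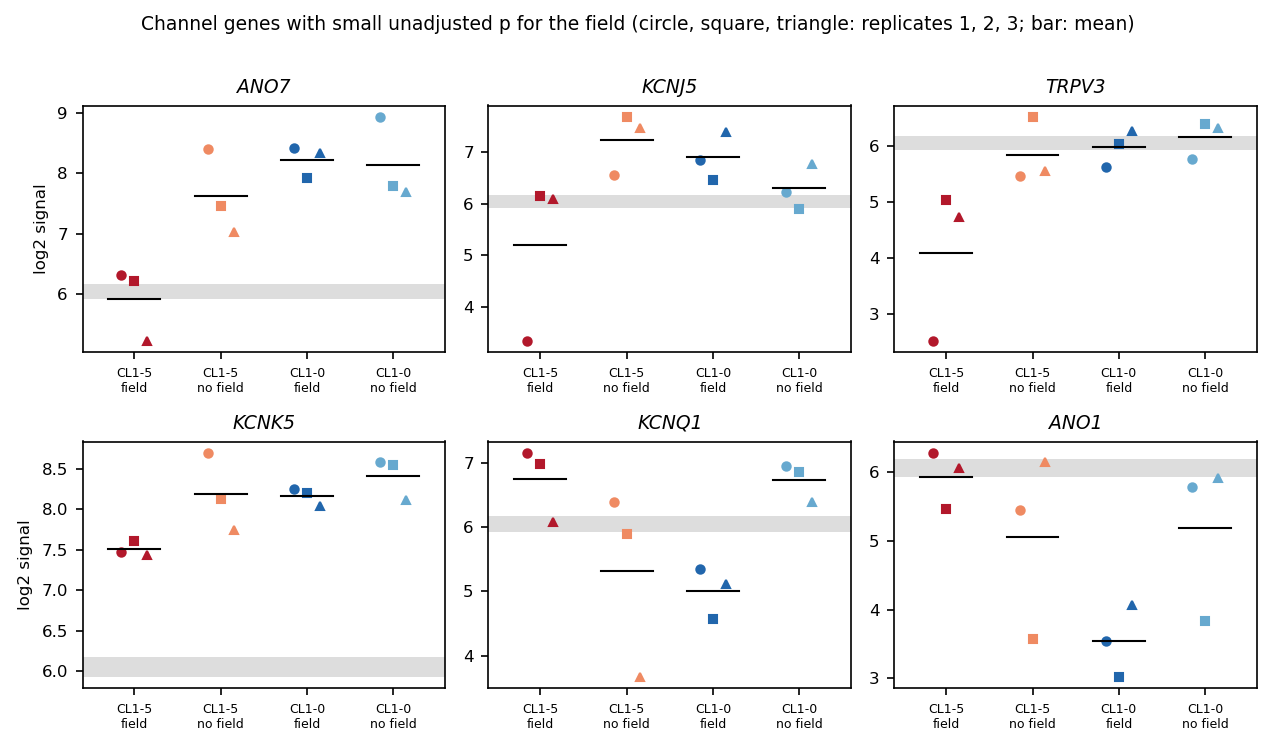
Log2 signal on each array for 6 members with a small unadjusted p for the field in either line or for its difference between the lines. Symbols, bars and grey band are as for the line comparisons. The 3 CL1-5 field points of ANO7, KCNJ5, TRPV3 and KCNK5 lie below the 3 CL1-5 points without the field, and those of KCNQ1 in CL1-0 do so too, but no adjusted p was under 0.05.

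The test of whether the lines responded unequally to the field also called none of the members (0.00% of all genes passed), and 4 members had an unadjusted p under 0.05, 4.26% against 1.06% of all genes. Beside KCNQ1 these were ANO7 (-1.80 ± 0.64), KCNJ5 (-2.64 ± 0.96) and ANO1 (2.51 ± 1.15), each with an adjusted p of 0.9999. CACNA2D4 followed with 0.83 ± 0.43. With the replicate block 5 of the 94 members had an unadjusted p under 0.05 in this comparison, and the share of all genes with the block is not given. Whether the members still exceed all genes with the block therefore cannot be said. In the CL1-5 field comparison such an excess was gone with the block. ANO1, an epithelial Ca2+-activated Cl- channel often amplified in squamous carcinoma, had 6.28, 5.46 and 6.06 in CL1-5 under the field and 5.45, 3.58 and 6.14 without it, against 3.54, 3.02 and 4.07 in CL1-0 under the field and 5.78, 3.84 and 5.91 without it. Only 3 of the 12 arrays, all of CL1-5, were above the array median, and with low signals raised to it the difference of the responses was -0.08.

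Channels outside these symbols were examined as lists for comparison. Of 19 tested store and organelle Ca2+ channels, 3 were higher and 0 lower in CL1-5 under the field, and 4 and 0 without it, where 9.83% and 9.04% of all genes were higher and 9.62% and 8.93% lower. The IP3 receptor gene ITPR3 averaged 11.65 and 11.56 in CL1-5 with and without the field, against 9.09 and 8.70 in CL1-0 (adjusted p = 0.0207 and 0.0124), and the endolysosomal channel gene MCOLN3 10.04 and 9.70 against 7.86 and 7.76 (adjusted p = 0.00256 and 0.00531). Of 13 epithelial Na+ and Cl- channel genes, 3 were higher and 1 lower in each setting, 4 in all, where 19.4% and 18.0% of all genes passed under and without the field. The volume-regulated anion channel subunit gene LRRC8C averaged 10.16 and 9.85 in CL1-5, against 8.10 and 8.14 in CL1-0 (adjusted p = 0.000191 and 0.000708), while its partner LRRC8A averaged 12.03 and 12.06 in CL1-5 and 11.54 and 11.33 in CL1-0 and did not pass.

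Of 17 tested ligand-gated channel genes, CHRNA9, a nicotinic acetylcholine receptor subunit, was the only one higher in CL1-5, at 11.41 ± 0.40 under the field and 11.05 ± 0.37 without it, against 6.06 ± 0.23 and 4.20 ± 1.34 in CL1-0 (SD, n = 3 each). Its difference was 5.34 ± 0.53 under the field (adjusted p = 2.9e-05) and 6.84 ± 0.53 without it (adjusted p = 5.06e-06). The CL1-0 signals lie around or below the array median, and with low signals raised to it CL1-5 was at least 39.1-fold and 33.5-fold higher. GABRA5 was lower under the field, where 19.4% of all genes passed, against 18.0% without it. Of 10 kinases and ligases that regulate channels, 2 were higher and 2 lower in each setting, against the same 19.4% and 18.0% of all genes. SGK1, a kinase that raises the surface level of several epithelial channels, averaged 11.05 and 10.37 in CL1-5 with and without the field, against 7.63 and 7.41 in CL1-0 (adjusted p = 0.000102 and 0.000285). NEDD4L, a ligase that removes such channels from the membrane, averaged 11.27 and 11.01 in CL1-5, against 8.94 and 8.96 in CL1-0 (adjusted p = 0.00686 and 0.0145). WNK3 was lower in both settings (-1.72 and -1.22). None of these lists had a member past the threshold in a field comparison.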

How the data were processed

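RNA from 12 samples of the 2 lines, 3 per line and field setting, was measured on 1-colour Affymetrix arrays of 54675 probe sets. The authors deposited signal intensities on a linear scale, made with MAS5 per the submitters' processing notes. No source used here gives its version or detection calls. The number of arrays limits the precision.

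Values under 1 (3691 values) were set to 1 before log2. Probe sets with 1 symbol (41097) were used, 1 per gene, and 1801 with several symbols and 11777 with none were left out. Genes above the array median on at least 3 arrays (13838) were compared by limma's moderated test, with a trend of the variance on the level, as 4 group means over 12 arrays (limma 3.58.1; R 4.3.3; the data.table package, version 1.17.8), with Benjamini-Hochberg adjustment over all genes at 0.05. The comparisons were the lines in each field setting, the field in each line and the difference of the field responses. The test was checked on simulated data drawn without a replicate or batch effect, so the check does not cover such effects.

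Residuals of arrays with the same replicate number correlated at 0.188 to 0.615 between groups. Replicate 1, without spike-in signal, was highest (0.429 to 0.615). For replicates 1 and 2 the value exceeded the highest correlation with another number throughout. For replicate 3 it fell short within CL1-5 (0.188 against 0.289) and between the lines without the field (0.189 against 0.235). It was larger within CL1-0 (0.366 against 0.271) and between the lines under the field (0.25 against 0.194). The labels state no pairing, so reading the numbers as pairs was an assumption. A fit with the replicate block was run beside the unblocked one. Other alternatives were the normalization, floor, filter, probe set choice, spike-in batch, arrays in the fit and each array left out. Members named are those past the threshold between the lines, the highest in each family and the 5 of smallest p in each field comparison. The members and lists were chosen with earlier results of these data known. Where signals under the array median were raised to it, a fold is given as at least its value. Bases before gene starts came from RefSeq, GRCh38.p14.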

Additional observations from a re-analysis of the deposited data

How the results depend on the processing

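The count of members past the threshold kept within 1.5 times under all but 1 alternative. Under the field it was 19, 13 to 18 with 1 array left out in turn, and 28 with the replicate block. Without the field it was 15, 10 to 15 with 1 array left out, and 19 with the replicate block, and became 9 with all probe sets of a gene averaged, which left 59 members tested. In both field comparisons and in the difference between them it was 0 to 0 with 1 array left out. Over all genes the replicate block raised the calls to 5277 (against 2691) under the field and 4921 (against 2487) without it, the spike-in batch as a block to 5195 and 4843, and the arrays with spike-in signal alone to 4414 and 4280. With the replicate block every call between the lines remained, and 9 members were added under the field and 4 without it.
Of the called members, 8 of 19 under the field and 8 of 15 without it passed under all alternatives that could test them, and none turned sign. Signs turned for CACNG6 in the CL1-5 field comparison with the mean of probe sets (0.29), and, with values under the array median raised to it, for ANO1 and CACNA2D4 in the CL1-0 field comparison (0.061 and 0.031) and for ANO1 in the difference of the field responses (-0.080). The cause was not tested. Of the 192 members, 98 were not tested, and 1 of these, CLCN4, has another probe set that met the filter.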
